A study of Haemulon flavolineatum and Haemulon macrostomum and Haemulon carbonarium with 36 samples.

Results

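Choriogenins and zona pellucida (ZP) proteins build the envelope around the fish egg, and 5 isogroups with such names were followed in the livers of 36 wild grunts of the genus *Haemulon*. An isogroup is a cluster of assembled transcripts taken as forms of 1 gene, though 1 gene may be split over several isogroups. The 5 were taken by name from the lists of differentially expressed genes that accompany the study, out of 58532 isogroups with counts. They are choriogenin H (isogroup14), choriogenin Ha (isogroup3885), choriogenin L (isogroup6269), zona pellucida protein Ba (isogroup23169) and zona pellucida sperm-binding protein 3, or ZP3 (isogroup2893). The lists hold only genes that the study called different between species in these same fish, so a species test that one of the 5 passes is not independent evidence. The names rest on the best protein match, which was weaker for zona pellucida protein Ba and ZP3 than for the choriogenins, and isogroup6269 also matches chicken ZP3 in the part of the annotation at hand.

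The samples were livers of 17 *H. flavolineatum*, 8 *H. carbonarium* and 11 *H. macrostomum*, speared on Caribbean reefs within 2 days, with 1 TagSeq library for each fish. TagSeq reads 1 tag near the 3′ end of each mRNA molecule. The fish were untreated, and neither age nor sex is given: grunts have no sexual dimorphism and the gonads were not developed. Reads of all 3 species were mapped to a liver transcriptome of *H. macrostomum* with up to 5 matches for each read, so similar isogroups may share reads and a tag may map less well in the other species, neither of which was tested. The totals ran from 578011 to 3252882 counts per fish. Levels are given as CPM, the counts per 1000000 of a library total that was adjusted by TMM, a scaling that keeps a few very abundant genes from shifting all the others. The study left 6 *H. flavolineatum* (fish 3, 10, 12, 13, 14 and 18) out of its repeated contrasts because of high reproductive genes. Since egg protein levels define these fish, they were not tested against the other 11.

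In female fish, estrogen from the ovary switches on choriogenin genes in the liver, and the proteins travel in blood to the oocyte, where they are laid down in the inner layer of the envelope (the chorion). Choriogenins of the H kind, among which Ha is placed here by its name, belong to the ZPB type of ZP domain protein. Choriogenin L belongs to the ZPC type, to which mammalian ZP3 also belongs. Vitellogenins, the yolk precursors, are made by the liver under the same hormone. Some other ZP genes of fish are expressed in the ovary rather than in the liver.

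Choriogenin Ha, a subunit of the inner envelope, was the most counted of the 5 in the 6 fish. In fish 3, 10, 12, 13, 14 and 18, in this order, it reached 57928, 142620.0, 55870.0, 136405, 88757 and 86681 CPM. Each of the 6 was above every other fish of the series, of which the highest was *H. flavolineatum* fish 11 at 1729 CPM. The other 11 *H. flavolineatum* had a lowest, median and highest level of 23.2, 71.5 and 1729 CPM, with fish 2 second at 869.6. This was not a plain split of species. The 8 *H. carbonarium* were at 728, 98.4, 26.1, 29.6, 35.6, 42.7, 92.6 and 24.1 CPM in the order of their numbers, and in the 11 *H. macrostomum* the lowest, median and highest were 11.5, 25.6 and 237 CPM. Thus every species held a fish well above its own median, but 8 of the 17 *H. flavolineatum* exceeded all *H. carbonarium*, and 9 exceeded all *H. macrostomum*.

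Choriogenin H, the other subunit of the ZPB type, was high in the same 6 fish. Their levels, again ordered as fish 3, 10, 12, 13, 14 and 18, were 20216, 53476, 19095, 44848, 32212 and 21473 CPM. In the other 11 *H. flavolineatum* it had a lowest, median and highest level of 25.0, 34.5 and 1301 CPM, with fish 11 again first and fish 2 second at 242 CPM. It was at 63.6, 46.5, 17.9, 28.5, 31.7, 31.1, 75.6 and 31.3 CPM in *H. carbonarium* fish 1 to 8, and from 9.40 to 97.0 CPM in *H. macrostomum*, with a median of 24.9. Both species overlapped with the lower *H. flavolineatum*.

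Choriogenin L, the subunit of the ZPC type, was far less counted but showed the same 6 fish. The same ordering of fish gave 210.1, 1686, 465, 899.8, 1106 and 1028 CPM. The other 11 *H. flavolineatum* had at most 34.5 CPM (fish 11), a median of 1.13, and no count in 3 fish. All 8 *H. carbonarium* together held 18 counts and all 11 *H. macrostomum* held 6, with none in 1 and in 7 of these fish. Per total count, *H. flavolineatum* held 154 times the choriogenin L of *H. carbonarium* (95% exact interval 97.5 to 260.5) and 759 times that of *H. macrostomum* (348 to 2069). Such intervals cover counting error only, not the spread between fish. Of the 5971 counts in *H. flavolineatum*, 5902 came from the 6 fish and 69 from the other 11, so these ratios are set by the 6.

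Zona pellucida protein Ba, a ZP domain protein by its match, was the rarest of the 5 and was found almost solely in *H. flavolineatum*. The 6, ordered as before, were at 71.1, 298, 85.4, 413, 136 and 79.5 CPM, from 152, 311, 67, 443, 185 and 67 counts. Of the other 11 *H. flavolineatum*, 7 had no count. No *H. carbonarium* had one, and *H. macrostomum* had 2 counts, 1 each in fish 4 and fish 7. Over the species, *H. flavolineatum* held 1243 counts, at least 193-fold higher per total count than *H. carbonarium* against 3 counts over the group, and 474 times *H. macrostomum* (exact interval 131 to 3917). Of the 1243 counts, 1225 came from the 6 fish and 18 from the other 11, so these ratios are set by the 6. Fish 7 of *H. flavolineatum* went against the pattern of the other isogroups: with 10 counts of zona pellucida protein Ba it led the 11 fish, while its level of choriogenin Ha was the lowest of its species, at 23.2 CPM from 50 counts. Too few fish held counts of zona pellucida protein Ba for it to pass the filter of the test between species, and without a filter its fitted fold change depends on the prior count and is not given.

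**Figure D1:**
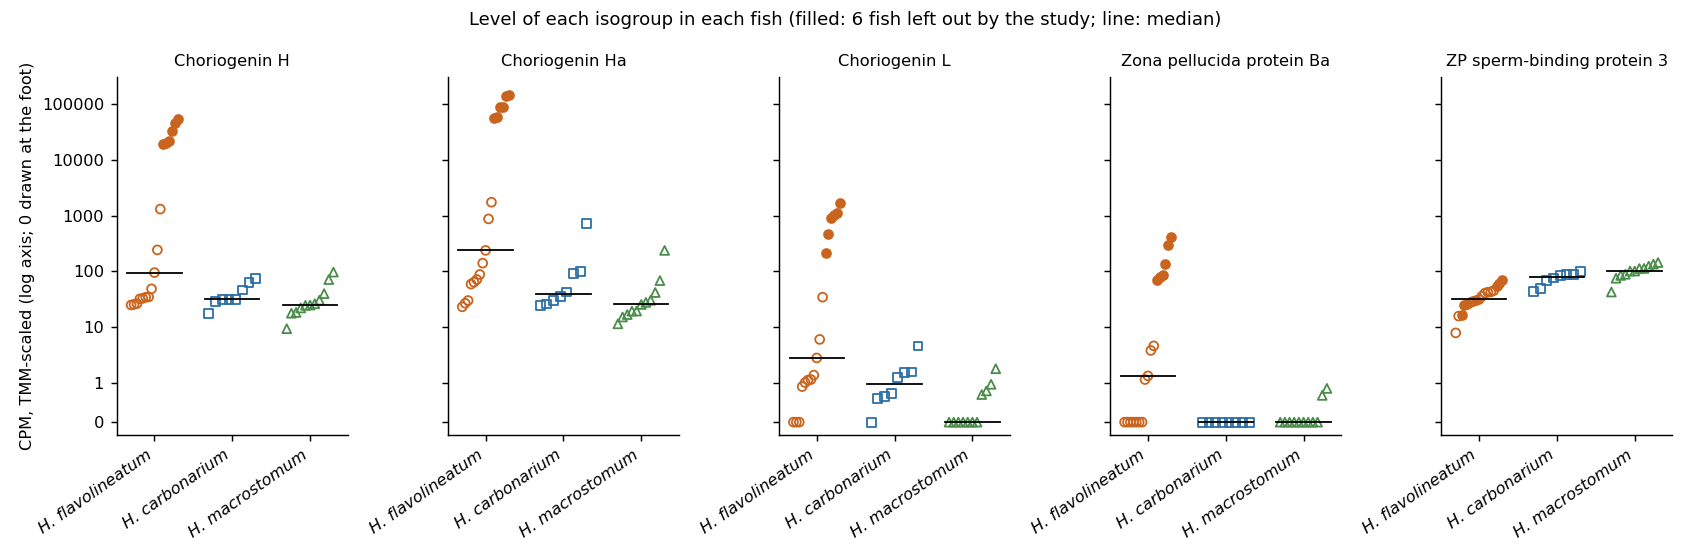
Level of each of the 5 isogroups in each fish, by species, in CPM on a log axis with 0 drawn at the foot. Filled points are the 6 *H. flavolineatum* that the study left out and lines are medians. The 6 fish lie above all others for the choriogenins and zona pellucida protein Ba, but between 16.6 and 70.2 CPM for ZP3.

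ZP3 departed from the other 4. It was detected in all 36 fish, and the 6 *H. flavolineatum*, ordered as before, were at 70.2, 54.7, 16.6, 26.1, 31.0 and 24.9 CPM. The other 11 *H. flavolineatum* covered nearly the same span, with a lowest, median and highest level of 7.92, 35.9 and 59.6 CPM. *H. carbonarium* fish 1 to 8 were at 42.9, 67.9, 76.3, 87.7, 49.9, 101, 84.4 and 89.4 CPM, and *H. macrostomum* had 42.7, 101 and 144 CPM as lowest, median and highest. The 6 fish therefore lay on both sides of the median of the other 11 *H. flavolineatum*. Of the 17 *H. flavolineatum*, 12 lay below every *H. carbonarium* and, equally, 12 below every *H. macrostomum*. Across all fish of a species the highest ZP3 level was 8.86 times the lowest in *H. flavolineatum*, 2.35 times in *H. carbonarium* and 3.38 times in *H. macrostomum*, whereas for choriogenin Ha these ranges were 6153, 30.1 and 20.7 times.

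The first comparison asked how the 5 isogroups differed between *H. flavolineatum* and *H. carbonarium*. Over all 36 fish, 4 of the 5 passed the filter on low counts, which asks for counts in enough fish, in a fit of 8598 isogroups with edgeR's quasi-likelihood test, called at an adjusted p (Benjamini-Hochberg) under 0.01. Choriogenin L passed the filter only through *H. flavolineatum*, where it is high, so it had to differ and its fold change is given as a description with no test. Choriogenins H and Ha, which also passed the filter without the 6 fish, were called higher and ZP3 lower in *H. flavolineatum*, against 6.55% of all tested isogroups called higher, 7.85% called lower and 14.4% called in all. On the log2 scale the fold change came to 8.20 for choriogenin H (SE 1.65, adjusted p = 2.29e-04), 7.90 for Ha (SE 1.82, adjusted p = 0.00119) and 7.86 for L (SE 1.68). ZP3 averaged 35.4 ± 16.2 CPM in *H. flavolineatum* (SD, n = 17) and 74.9 ± 20.1 CPM in *H. carbonarium* (n = 8), which is -1.11 on the log2 scale (SE 0.22, edgeR adjusted p = 1.75e-04). The median log2 fold change of all tested isogroups was 0.05.

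Against *H. macrostomum* the directions were the same. In log2 terms edgeR placed choriogenin H at 8.53 (SE 1.44, adjusted p = 8.29e-06), Ha at 9.71 (SE 1.69, adjusted p = 1.39e-05) and, as a description only, L at 9.83 (SE 1.64). ZP3 averaged 35.4 ± 16.2 CPM in *H. flavolineatum* (SD, n = 17) and 102 ± 28.8 CPM in *H. macrostomum* (n = 11), which is -1.48 on the log2 scale (SE 0.20, adjusted p = 1.35e-07). Again H and Ha were called higher and ZP3 lower, where 26.0% of all tested isogroups were called, 11.6% of all higher and 14.4% lower. The contrasts share the *H. flavolineatum* fish, so they are not separate tests of these fish.

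Between *H. carbonarium* and *H. macrostomum*, none of choriogenin H, choriogenin Ha and ZP3 was called, where 13.5% of all tested isogroups were, 6.08% higher and 7.41% lower in *H. carbonarium*. None of them reached an unadjusted p under 0.05 either, and DESeq2 also called none. Choriogenin L held 18 counts in *H. carbonarium* and 6 in *H. macrostomum*, too few to be called, and is given as a description. The log2 fold changes were 0.33 for choriogenin H (SE 1.17), 1.81 for Ha (SE 1.29), 1.97 for L (SE 1.97) and -0.37 for ZP3 (SE 0.24, edgeR adjusted p = 0.292). The SEs of the choriogenins leave room for differences of several fold. The value of choriogenin Ha rests on *H. carbonarium* fish 1, at 728 CPM: without it the log2 fold change was 0.18 (SE 1.30). In the order of mean ZP3 levels, *H. macrostomum* was first and *H. carbonarium* second, and *H. flavolineatum* was below both. The difference between the first 2 was not called, which does not show that they are equal. How far mapping to the *H. macrostomum* reference enters this order was not tested.

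Since the 6 *H. flavolineatum* were left out for their egg proteins, smaller choriogenin differences of this species without them follow from that choice. They are given as a description, with no test. In the fit of the other 30 fish, with 8518 isogroups, ZP3 was lower in *H. flavolineatum* than in *H. carbonarium* (log2 fold change -1.24, SE 0.23, edgeR adjusted p = 1.64e-04) and than in *H. macrostomum* (-1.59, SE 0.22, adjusted p = 7.70e-07). Of 677 mean counts listed with the study, 671 were met by these 30 fish, so the members were chosen at least partly on the same fish. The ZP3 calls of this fit are therefore no independent check. Against *H. carbonarium*, 12.4% of all tested isogroups were called (5.22% higher, 7.17% lower). Choriogenin H was there at 1.99 (SE 0.70) and choriogenin Ha at 1.01 (SE 0.84). Against *H. macrostomum*, 22.5% were called (9.22% higher, 13.2% lower), with choriogenin H at 2.34 (SE 0.63) and choriogenin Ha at 2.78 (SE 0.80). Choriogenin L no longer passed the filter. Between *H. carbonarium* and *H. macrostomum* none of choriogenin H, choriogenin Ha and ZP3 was called, where 14.4% of all were (6.49% higher, 7.87% lower). The higher choriogenins rested on *H. flavolineatum* fish 11 and fish 2. Against *H. macrostomum*, choriogenin H was at 0.87 (SE 0.43) and choriogenin Ha at 1.93 (SE 0.73) without fish 11. Without both fish, choriogenin H was at 0.24 (SE 0.37) and choriogenin Ha at 0.96 (SE 0.66) in this contrast. ZP3 without both was at -1.55 (SE 0.24, edgeR adjusted p = 8.31e-06).

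**Figure D2:**
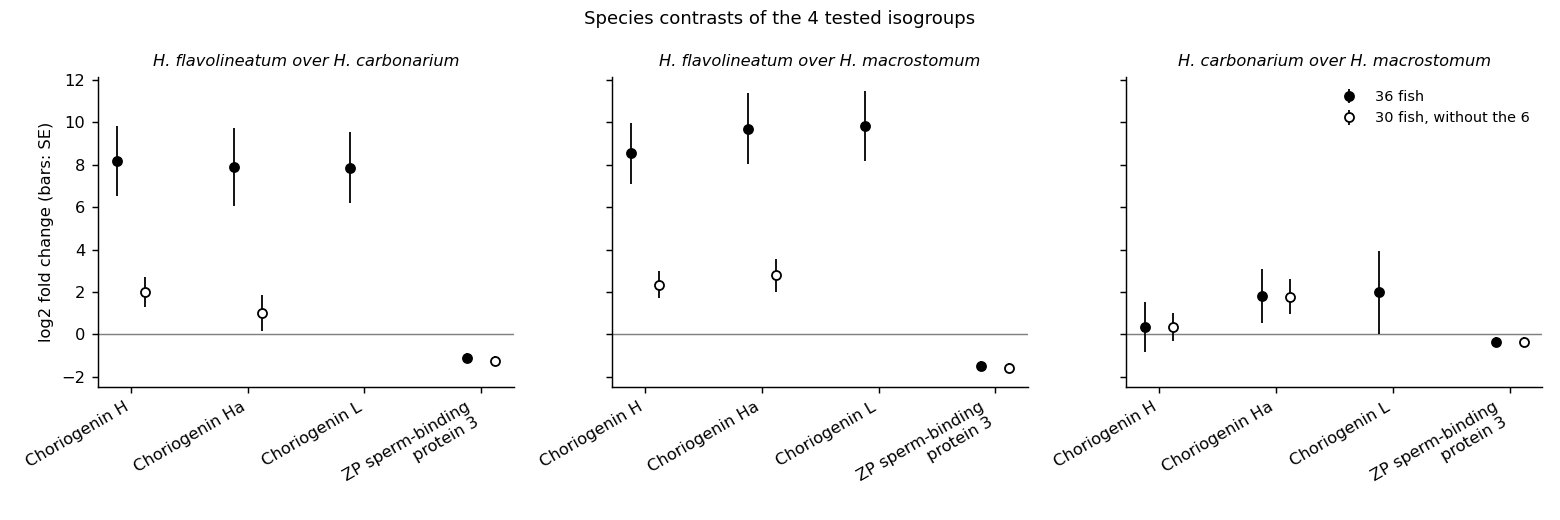
Log2 fold change of the 4 isogroups that passed the filter in the 3 contrasts between species, with SE bars, over 36 fish (filled) and over 30 fish without the 6 (open). Choriogenin L is shown over 36 fish only, as a description. Values of the choriogenins near 8 to 10 over all fish lie at 2.78 or less without the 6, while ZP3 stays between -1.11 and -1.59 for *H. flavolineatum*.

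The choriogenin genes took a large share of all liver counts in the 6 fish. Choriogenins H, Ha and L together, in fish ordered as before, held 6.46%, 13.7%, 7.16%, 14.2%, 9.99% and 10.5% of the library. The exact Clopper-Pearson intervals (95%) are narrow at this depth, for example 6.43% to 6.49% for fish 3 and 14.2% to 14.3% for fish 13. Fish 11 and fish 2 followed at 0.314% and 0.132%. The highest *H. carbonarium* was fish 1 at 0.0740% and the highest *H. macrostomum* was fish 4 at 0.0321%. In bulk liver, more RNA in each hepatocyte and more cells that make these RNAs cannot be told apart.

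Ratios between choriogenin types within a library do not depend on scaling between libraries. How much of each 3′ end the reference holds is not known, so a ratio is compared only between fish and not read as a ratio of molecules. In the 6 fish, ordered as before, choriogenin Ha counts were 2.87, 2.67, 2.93, 3.04, 2.76 and 4.04 times those of H. Choriogenin H thus made up 19.9% (fish 18) to 27.3% (fish 10) of the counts of H and Ha together, a narrow span beside that of the other fish. Among the other 11 *H. flavolineatum* the share of H ran from 17% in fish 17 to 54.5% in fish 5, with a median of 35%. It ran from 8.04% in *H. carbonarium* fish 1 to 56.5% in fish 8, and from 23.6% in *H. macrostomum* fish 5 to 80.9% in fish 9. The shares at low levels come from few counts: that of *H. macrostomum* fish 9 rests on 110 counts of H and 26 of Ha (exact interval 73.3% to 87.1%), and that of *H. carbonarium* fish 1 on 43 of H and 492 of Ha (5.88% to 10.7%). These 2 intervals do not overlap with those of any fish of the 6. Better counted outside the 6 were *H. flavolineatum* fish 11 and fish 2. Fish 11, with 1696 counts of H and 2254 of Ha, was at 42.9% (exact interval 41.4% to 44.5%), outside the span of the 6. Fish 2, with 360 and 1293 counts, was within it at 21.8% (19.8% to 23.8%).

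**Figure D3:**
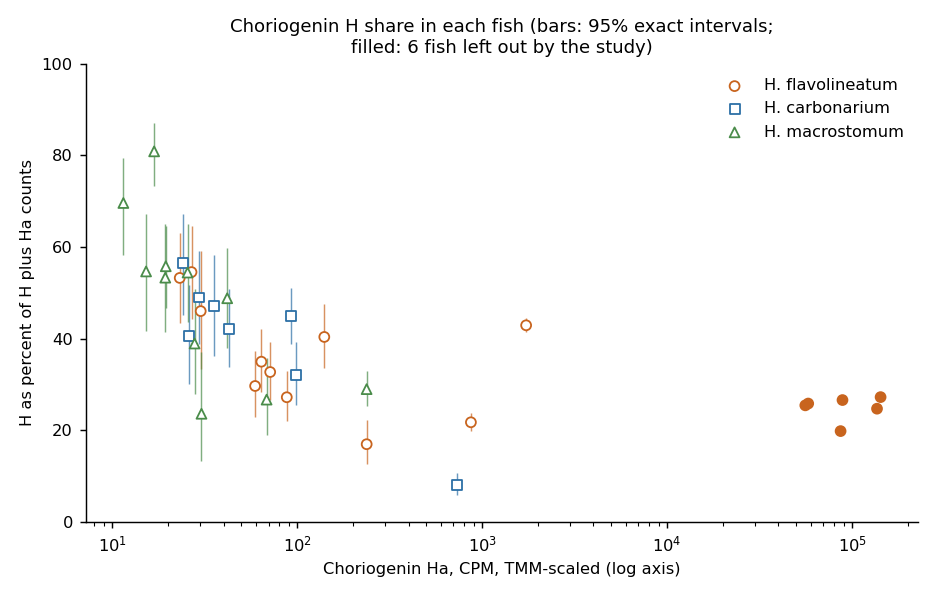
Choriogenin H as a percent of the counts of H and Ha together in each fish, against the level of choriogenin Ha in CPM on a log axis. Bars are 95% exact intervals and filled points are the 6 *H. flavolineatum* left out by the study. These 6 lie between 19.9% and 27.3%, while the other fish run from 8.04% to 80.9%.

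The test of these ratios between species was a permutation test of the mean log2 ratio, 2-sided, with 6 tests adjusted together by Benjamini-Hochberg and called under 0.05. The ratio of H to Ha was lower in *H. flavolineatum* (mean log2 ratio -1.12 ± 0.74, SD, n = 17) than in *H. macrostomum* (-0.07 ± 1.13, n = 11). The difference was -1.04 (SE 0.39, permutation p = 0.00657, adjusted p = 0.0394). This call was lost without the 6 fish (difference -0.78, SE 0.42, adjusted permutation p = 0.449) and in 17 of the 36 cases with 1 fish left out, where the adjusted p ran from 0.0112 to 0.103. Against *H. carbonarium* (-0.71 ± 1.20, n = 8) the difference of *H. flavolineatum* was -0.40 (SE 0.46, exact permutation p = 0.313, adjusted p = 0.375), and without *H. carbonarium* fish 1 it was -0.80 (SE 0.25, adjusted exact permutation p = 0.0315). *H. carbonarium* and *H. macrostomum* differed by -0.64 (SE 0.54, exact permutation p = 0.260, adjusted p = 0.375).

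Choriogenin L was counted at a low and variable rate beside Ha. For every 1000 counts of Ha the 6 fish, ordered as before, held 3.63, 11.8, 8.33, 6.60, 12.5 and 11.9 of L, with fish 3 the lowest. Fish 11 and fish 2 had 19.96 and 6.96. In the remaining fish of all species the rate rests on 9 counts of L or fewer. The mean log2 ratio of L to Ha was -6.38 ± 1.09 in *H. flavolineatum* (SD, n = 17), -5.46 ± 2.14 in *H. carbonarium* (n = 8) and -5.96 ± 0.90 in *H. macrostomum* (n = 11), with 0.5 added to each count. In the 7 *H. macrostomum* with no count of L the ratio is set by the added 0.5 and by Ha, so the differences of -0.43 (SE 0.38) for *H. flavolineatum* minus *H. macrostomum* and 0.50 (SE 0.80) for *H. carbonarium* minus *H. macrostomum* are given as a description. *H. flavolineatum* minus *H. carbonarium* was -0.93 (SE 0.80). It became -1.57 (SE 0.53) without *H. carbonarium* fish 1, which had 492 counts of Ha and none of L, so its size turns on 1 fish. Of the other *H. carbonarium*, fish 3 held 9 counts of L and the rest 1 or 2 each, while 3 *H. flavolineatum* held none. The added 0.5 therefore weighs on these ratios as well, and both differences are given as a description, with no test.

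Zona pellucida protein Ba stood to Ha at 1.23, 2.09, 1.53, 3.03, 1.54 and 0.917 counts per 1000 in the 6 fish, ordered as before. In fish 11 the rate was 2.22 and in fish 2 it was 1.55, both within the span of the 6 but from only 5 and 2 counts. Fish 8, with 1 count, was outside it at 8.26. Fish 7, with 10 counts of zona pellucida protein Ba beside 50 of Ha, was at 200 per 1000. By contrast, ZP3 stood at 0.192 (fish 13) to 1.21 (fish 3) counts per 1000 of Ha in the 6 fish and at 18.2 (fish 11) to 1760.0 (fish 7) in the other *H. flavolineatum*. In *H. carbonarium* and *H. macrostomum* the median rates of ZP3 were 1879 and 4390.2, so that in most of these fish ZP3 had more counts than Ha.

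**Figure D4:**
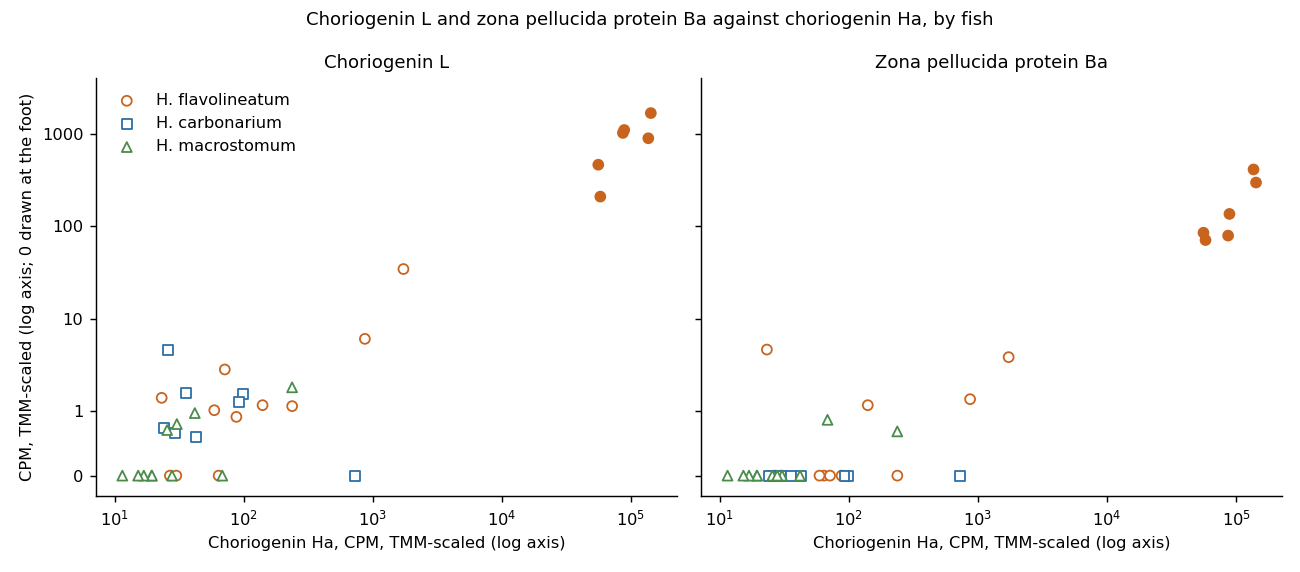
Choriogenin L (left) and zona pellucida protein Ba (right) against choriogenin Ha in each fish, in CPM on log axes with 0 of either drawn at the foot. The 6 *H. flavolineatum* left out by the study (filled) lie at 210 to 1686 CPM of L and 71.1 to 413 CPM of zona pellucida protein Ba. In the right panel, *H. flavolineatum* fish 7 is the leftmost open circle, at 4.64 CPM.

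Choriogenin H varied together with Ha in both groups of *H. flavolineatum*, while no correlation passed in the other species. On log2(CPM + 1), the correlation was r = 0.94 over the 6 *H. flavolineatum* (Spearman's rho = 1, exact permutation p = 0.00278 for each, adjusted p = 0.0167 over 24 relations), and r = 0.89 without the 2 fish farthest from the median of Ha. On unscaled library totals it was r = 0.90 and no longer passed (adjusted exact permutation p = 0.08). Over the other 11 it was r = 0.92 (rho = 0.88, adjusted permutation p = 0.0103 for each), and r = 0.70 without 2 fish. In *H. carbonarium* it was r = 0.76 over 8 fish (rho = 0.74, adjusted exact permutation p = 0.0893 and 0.122), and r = 0.89 without 2 fish. In *H. macrostomum* it was r = 0.48 over 11 fish (rho = 0.18, adjusted permutation p = 0.259 and 0.647), and r = -0.13 without 2 fish. All points of a group share the sequencing lane, and the reads that H and Ha may share were not separated.

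Choriogenin L and Ha had r = 0.85 over the 11 *H. flavolineatum* (rho = 0.60, adjusted permutation p = 0.0181 and 0.127), but r = 0.38 without the 2 fish farthest from the median of Ha, so the relation rests on those fish. It had r = 0.81 over the 6 (rho = 0.77, adjusted exact permutation p = 0.127 and 0.190). In *H. carbonarium* it was -0.52 (rho = -0.36, adjusted exact permutation p = 0.237 and 0.467) and in *H. macrostomum* 0.74 (rho = 0.66, adjusted permutation p = 0.0922 and 0.0927). These 2 values rest on 18 and 6 counts of L over the whole species, with no count in 7 *H. macrostomum*, so nothing is read from them. ZP3 and Ha had no correlation that passed in any of the 4 groups: r was 0.13 over the 6 (rho = 0.37), -0.35 over the other 11 (rho = -0.56), -0.65 in *H. carbonarium* (rho = -0.52) and 0.04 in *H. macrostomum* (rho = -0.31), with adjusted permutation p from 0.156 to 0.986. Without the 2 fish farthest from the median of Ha, r was -0.82 over the 6, -0.65 over the other 11, 0.08 in *H. carbonarium* and -0.66 in *H. macrostomum*, so these values turn on few fish.

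**Figure D5:**
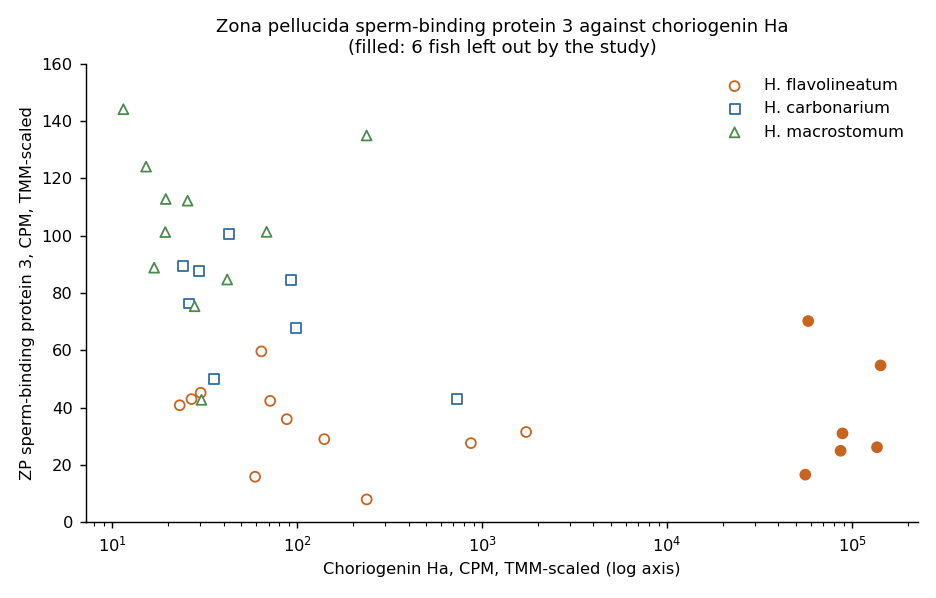
ZP3 in CPM (linear axis) against choriogenin Ha in CPM (log axis) in each fish. The 6 *H. flavolineatum* left out by the study (filled) have at least 55870.0 CPM of Ha and 16.6 to 70.2 CPM of ZP3, which overlaps with the 7.92 to 59.6 CPM of the other *H. flavolineatum*, and most *H. carbonarium* and *H. macrostomum* lie higher.

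Among 8597 other tested isogroups, those most like Ha over the 36 fish by Spearman's rho were yolk precursors. Vitellogenin B (isogroup31593) had rho = 0.91, vitellogenin Aa (isogroup7355) 0.91 and a further vitellogenin (isogroup57324) 0.81, at ranks 1, 2 and 5, with choriogenin H at rank 4 (0.82) and choriogenin L at rank 8 (0.74). ZP3 was at rank 8478 with rho = -0.62. The named isogroups most like ZP3 were biotinidase (isogroup532, rho = 0.86), which recycles the vitamin biotin, inositol oxygenase (isogroup68, 0.85), which breaks down inositol, and a SUMO-1 fragment (isogroup13384, 0.84). With each species centred on its own mean, ZP3 had r = -0.06 with Ha, 0.06 with H and 0.01 with L. The isogroup most like it was then isogroup1845 (r = 0.71), which has no such name. The first with a name, at rank 13, was a subunit of succinyl-CoA ligase (isogroup1735, r = 0.66), an enzyme of the citric acid cycle. These are descriptions over 36 fish that share species differences and libraries.

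Other egg proteins, from a fixed list, were followed for comparison. Of 7 vitellogenin isogroups and nothepsin, an aspartic protease of the liver in female zebrafish, 5 passed the filter over 36 fish, but 3 of them only with the 6 fish, so no count is drawn from them. The 2 that also passed without the 6 fish were called higher in *H. flavolineatum* over 36 fish: vitellogenin B (isogroup31593) had edgeR log2 fold changes of 9.06 against *H. carbonarium* (SE 1.84, adjusted p = 2.62e-04) and 9.56 against *H. macrostomum* (SE 1.61, adjusted p = 8.44e-06), and vitellogenin Aa (isogroup7355) of 9.15 (SE 1.83, adjusted p = 2.14e-04) and 9.96 (SE 1.63, adjusted p = 4.87e-06). These sizes are largely set by the 6 fish. Without them, as a description with no test, vitellogenin B was at 2.61 (SE 0.88) against *H. carbonarium* and 3.12 (SE 0.79) against *H. macrostomum*. Vitellogenin Aa was then at 3.26 (SE 0.98) and 4.09 (SE 0.89). Summed vitellogenin was at 37167, 49919.8, 39109, 65779, 44873 and 34207 CPM in the 6 fish, ordered as before. Per CPM of the 3 choriogenins this was 0.252 (fish 10) to 0.518 (fish 12), within the 0.106 to 0.566 of the other *H. flavolineatum*. In *H. carbonarium* fish 1, where Ha stood out, the same quotient was 0.0692, the lowest of all 36 fish. Nothepsin ran from 475 to 2648 CPM in the 6 fish, with at most 69.1 CPM in the other 11, 5.67 CPM in *H. carbonarium* and 4.36 CPM in *H. macrostomum*.

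A second fixed list held 10 isogroups tied to the egg envelope, to estrogen or to protein secretion, 9 of them tested. Against *H. carbonarium*, 1 was higher in *H. flavolineatum*, 2 lower and 6 not called, where 6.55% of all tested isogroups were higher and 7.85% lower. Against *H. macrostomum*, none was higher, 3 were lower and 6 were not called, where 11.6% of all were higher and 14.4% lower. Lists of this size allow no statement beyond the counts. Fetuin-B, which in the mouse keeps the egg envelope from hardening before fertilization by inhibiting a protease, has 2 isogroups, and isogroup1014 averaged 144 ± 43.7 CPM in *H. flavolineatum* (SD, n = 17) against 251 ± 49.3 CPM in *H. carbonarium* (n = 8) and 418 ± 94.3 CPM in *H. macrostomum* (n = 11). Its log2 fold changes were -0.84 (SE 0.18, edgeR adjusted p = 3.64e-04) and -1.49 (SE 0.16, adjusted p = 7.94e-10), lower in *H. flavolineatum* like ZP3. The other fetuin-B (isogroup234) had -0.46 (SE 0.22, edgeR adjusted p = 0.126) and -0.78 (SE 0.19, adjusted p = 0.00148). Sex hormone-binding globulin (isogroup685), a carrier of sex steroids in blood, was not called, with log2 fold changes of -0.42 (SE 0.18, edgeR adjusted p = 0.0924) and -0.44 (SE 0.17, adjusted p = 0.0331). Estradiol 17-beta-dehydrogenase 2 (isogroup1868), which inactivates estradiol, was higher in *H. flavolineatum* than in *H. carbonarium* (1.71, SE 0.29, edgeR adjusted p = 1.44e-05) but not called against *H. macrostomum* (-0.36, SE 0.23, adjusted p = 0.211).

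All 6 hepatocyte markers were detected in each species, and the lowest summed levels were those of fish high in choriogenin. The sum is mostly 2 markers: in *H. flavolineatum* apolipoprotein A-I averaged 17803 and hemopexin 6797 of 24914 CPM. It is therefore not read as a measure of hepatocyte content. The 6 fish spanned 6504 to 23711 CPM, and the other 11 *H. flavolineatum*, which overlap with them, 20409 to 39687. *H. carbonarium* spanned 29298 to 56662 CPM and *H. macrostomum* 28295 to 56333. Of the 6 markers, *H. flavolineatum* had 1 called higher and 2 called lower against *H. carbonarium*, and 2 in each direction against *H. macrostomum*, where 14.4% and 26.0% of all tested isogroups were called in these contrasts. Apolipoprotein B-100 was higher against both (log2 fold changes 2.08 and 2.42) and complement C3 against *H. macrostomum*. Apolipoprotein A-I was lower against both, antithrombin-III against *H. carbonarium* and fibrinogen gamma chain against *H. macrostomum*. Digestive enzymes of the exocrine pancreas, which in many fish lies within or around the liver, were found in all 3 species: the sum of 10 isogroups spanned 1257 to 12499 CPM in *H. flavolineatum*, 7259 to 31678 CPM in *H. carbonarium* and 197.5 to 3863 CPM in *H. macrostomum*. One of them, an alpha amylase (isogroup41615), had no count in *H. macrostomum*. The part of either tissue in the levels of the 5 isogroups was not tested, and no marker of the ovary had a name in the annotation used here.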

How the data were processed

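Single-end TagSeq reads of 36 livers were sequenced in a single lane. The authors filtered reads by quality and removed duplicates (FastX Tool Kit), mapped with Bowtie2, and deposited whole-number counts per isogroup without normalization, 1 library for each fish. Tool versions and batches are not given in the sources used here. The labels do not say more of replicates than that each sample is a separate wild fish.

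Isogroups with enough counts were kept by filterByExpr with thresholds of 10 for the count, 15 for the total, 10 for a large group and 0.7 for the proportion, and held 96.6% of counts. Counts were scaled by TMM and fitted with species as the only term in edgeR 4.0.16 (R 4.3.3). The SE is the log2 fold change divided by the square root of F. Ratios and correlations were tested in Python 3.11.15 by permutation, exact under 10 fish, otherwise with 100000 resamples. Both kinds of script were tested on simulated data.

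The members, lists and tests were chosen with earlier results of these data known, and named isogroups are the members, the fixed lists and the 3 named isogroups most like Ha and ZP3. The 6 fish were identified from mean counts listed with the study: 671 of 677 were met within a relative tolerance of 0.001 by the 30 other fish, and 3 of 677 by all 36. Fold changes and p-values listed with the study were not used. Alternatives were DESeq2 1.42.0, median-of-ratios and upper-quartile scaling, other filters, an adjusted p under 0.05, fewer fish, a replicate block and other pseudocounts.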

Additional observations from a re-analysis of the deposited data

Results flagged for a closer look

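In *H. carbonarium*, 4 values lay far from those of the other 7 fish by Dixon's test. For 1 quantity with a normal distribution, chance meets this rule in about 1 in 20 groups. Several quantities were looked at here, some from few counts, so chance meets it more often. Choriogenin Ha in fish 1 was at 728 CPM, with a gap of 0.895 of the whole range to the next fish. The log2 ratios of H to Ha (-3.50) and of L to Ha (-9.94) were lowest in the same fish, with gaps of 0.627 and 0.541; all 3 values share its 492 counts of Ha, and the ratio of L rests on no count of L. Choriogenin L in fish 3 was at 4.61 CPM, from 9 counts, with a gap of 0.656.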

How the results depend on the processing

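The calls of choriogenin H, choriogenin Ha and ZP3 over 36 fish were the same with DESeq2, both other scalings and no count filter. These calls also held with a mean count of at least 10, an adjusted p under 0.05 and only the species compared. With only the species compared, 2 fold changes of the 4 isogroups could not be given. The other scalings moved the median of all isogroups by less than 0.1. With 1 fish left out, choriogenin H, choriogenin Ha and ZP3 kept their calls in all 36 cases in both contrasts of *H. flavolineatum*. None of them was called for *H. carbonarium* over *H. macrostomum*. Choriogenin L, given as a description, passed the filter in 28 of 36 cases. In the fit of 30 fish, ZP3 kept both of its calls with each fish left out in turn. Its log2 fold change ran from -1.32 to -1.11 against *H. carbonarium* and from -1.67 to -1.47 against *H. macrostomum*. In the fit of 30 fish, the number called with 1 fish left out was 1 to 1, 1 to 3 and 0 to 0 in the 3 contrasts, the 1 coming without *H. flavolineatum* fish 11; without fish 2 and 11, chosen after seeing the data, it was 1 against *H. macrostomum*, and against *H. carbonarium* choriogenin H (-0.11) and Ha (-0.81) reversed.

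The differences in log2 ratio of H to Ha with 1 fish left out ran from -0.80 to -0.25, -1.20 to -0.83 and -0.80 to -0.24 in the same order of contrasts, and those of L to Ha from -1.57 to -0.49, -0.58 to -0.31 and 0.0692 to 1.14; the ratio of H to Ha against *H. macrostomum* was -0.78 without the 6 fish. A pseudocount of 1, medians and a minimum of 20 counts of Ha, which all 36 fish met, changed no call. On unscaled totals, the correlation of Ha with H over the 6 fish was 0.90 (adjusted p = 0.08) and that with ZP3 reversed to -0.23. The cause of these changes was not tested.

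A replicate block of fish numbers, which the species share without coming from the same animals, left ZP3 called against both *H. carbonarium* and *H. macrostomum*. The share of all isogroups called under this block was not worked out, so no count of calls is drawn from it. Choriogenin L was called against *H. macrostomum*, but it passed the filter only through *H. flavolineatum*, so its call carries no weight. Choriogenins H and Ha were no longer called. *H. flavolineatum* fish 12 to 18 were out of the contrast for want of a partner. Choriogenin H was then at 1.88 and 2.77, Ha at 2.65 and 3.41, L at 2.35 and 5.84, and ZP3 at -0.95 and -1.23. Same-numbered fish had a median correlation of deviations of -0.02 over 25 pairs, 1 of them over 0.1, and 2 of 29 fish correlated best with their own number, so the numbers do not pair the fish. Depth limits zona pellucida protein Ba and choriogenin L, which outside the 6 fish rest on few counts.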
